A study of Rattus norvegicus with 16 samples.

Results

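The genes described here make fatty acids from acetyl-CoA, lengthen and desaturate them, join them to glycerol as triglyceride, and release them again from lipid droplets. The set was a fixed list of 38 gene symbols, matched to the transcript clusters of the array by the symbol of the platform annotation, with the brightest cluster per symbol. In all, 37 of the 38 had a named cluster, out of 15037 named genes and 23188 clusters on the array, and Plin3 had no named cluster in the annotation used here. Their expression was compared between 832/13 INS1 β cells, a clonal rat insulinoma line (1 clone), transduced with a lentiviral vector for GFP (8 arrays) or for Pax5 (8 arrays). The arrays came in 8 numbered pairs, called experiments here, of 1 GFP and 1 Pax5 array. Virus was left on both groups for 24 h (MOI 1.25), the glucose of the medium was 11.1 mM, and RNA was taken 72 h after transduction. The transgenes of the study's lentiviral vectors are driven by the human phosphoglycerate kinase 1 promoter, and its overexpressed proteins, Pax5 included, carried an HA tag (an untagged Pax5 is described for secretion measurements). Untransduced cells were not analysed here, so every difference is one between Pax5 and GFP cells.

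In fatty acid synthesis, citrate from mitochondria is cleaved to cytosolic acetyl-CoA, acetyl-CoA carboxylase turns this into malonyl-CoA, and fatty acid synthase builds palmitate from both. Elongases and desaturases then shape the chain, acyl-CoA synthetases activate it, and a series of acyltransferases and a phosphatase assemble phosphatidic acid, diacylglycerol and triglyceride. The transcription factors SREBP-1 and ChREBP switch on many of these genes in response to insulin and glucose. In β cells, malonyl-CoA and lipid signals take part in the coupling of glucose metabolism to insulin secretion, and an excess of stored or free fatty acid is harmful.

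RMA log2 values of the arrays were used as deposited, where 1 unit is a 2-fold difference. RMA values compare arrays for 1 gene, not different genes with each other. Array medians lay between 6.98 and 7.01, and the transgene's own cluster, Pax5, lay between 7.23 and 8.39 in GFP cells and between 17.02 and 17.56 in Pax5 cells. The 8 measured β cell markers had log2 values between 9.0 (Nkx6-1) and 18.37 (Ins1), and the mean of the 8 ranged from 15.41 to 15.59 in GFP and from 15.30 to 15.51 in Pax5 arrays. Iapp (log2 fold change 0.46) and Neurod1 (0.29) rose, Slc2a2 (-0.95) and Slc30a8 (-0.40) fell, and Ins1, Ins2, Pdx1 and Nkx6-1 did not pass the test. Values of 5 exocrine pancreas markers lay between 4.31 and 5.74, none of them called, and those of 5 adipocyte markers between 3.86 and 7.91. Among the 5 measured markers of other islet cells, Gcg, the glucagon gene, rose by 0.74 in 8 of 8 experiments (adjusted p = 3e-06), from 17.20 to 17.52 in GFP to 17.89 to 18.21 in Pax5 arrays, and the other 4 did not pass, with values between 4.72 and 6.04. Of the 5 measured adipocyte markers, Adipoq rose (log2 fold change 0.25) and Cidec fell (-0.66), and the mean of the 5 ranged from 5.31 to 5.56 in GFP and from 5.27 to 5.52 in Pax5 arrays. Of the 4 hepatocyte markers, Fgb rose by 1.52, Alb, Apoa2 and Ttr did not pass the test, and the mean of the 4 ranged from 6.03 to 6.18 in GFP and from 6.45 to 6.63 in Pax5 arrays. The part of such cells in the results below was not tested. In such bulk RNA, fewer cells expressing a gene and less of its RNA per cell cannot be told apart.

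Pax5 cells expressed more Gpam and Dgat2, which carry out the first and the last step of triglyceride assembly, and more Elovl6, Fasn and Mlxipl, while Srebf1, Elovl7 and the acyl-CoA synthetases Acsl1, Acsl3 and Acsl4 were lower. Of the 37 members, 22 (59.5%) passed the test, a limma fit that took the experiment as a block, at a Benjamini-Hochberg adjusted p under 0.05 over all clusters, against 30.7% of all clusters, 32.4% of named genes and 41.3% of clusters when the dimmest 30% were left out. The members included 13 that were higher (35.1%, against 14.6% of all clusters) and 9 that were lower (24.3%, against 16.1%). Gpam, Dgat2 and Elovl6 changed at least 2-fold, which held for 2.15% of all clusters. Because the members were chosen with earlier results of these arrays known, these shares are descriptions. Apart from the 41.3%, the shares of all clusters in this paragraph include dim clusters, which are called less often. Of the 37 members, only 3 are among the dimmest 30%, so the members may stand out less than these contrasts show. Counts by pathway step below rest on 1 to 11 measured genes each and are to be read beside the same shares. In 14 members the values of the GFP and the Pax5 arrays did not overlap (37.8%, against 16.7% of all clusters), 8 of them higher (8.08% of all clusters) and 6 lower (8.62% of all clusters). The sign of the difference was the same in all 8 experiments for 15 members (40.5%, against 20.4% of all clusters). Such a shared sign alone fixes the exact permutation test by sign flips at p = 0.00781 (2-sided, unadjusted). That is the smallest p that 8 pairs allow, and it adds nothing to the count. The median log2 fold change of the members was 0.13 (0.00 over all clusters) and the median absolute change 0.32 (0.13 over all clusters). The 15 members that did not pass had log2 fold changes between -0.30 and 0.21, and none of their 95% intervals reached beyond -0.60 or 0.39.

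**Figure D1:**
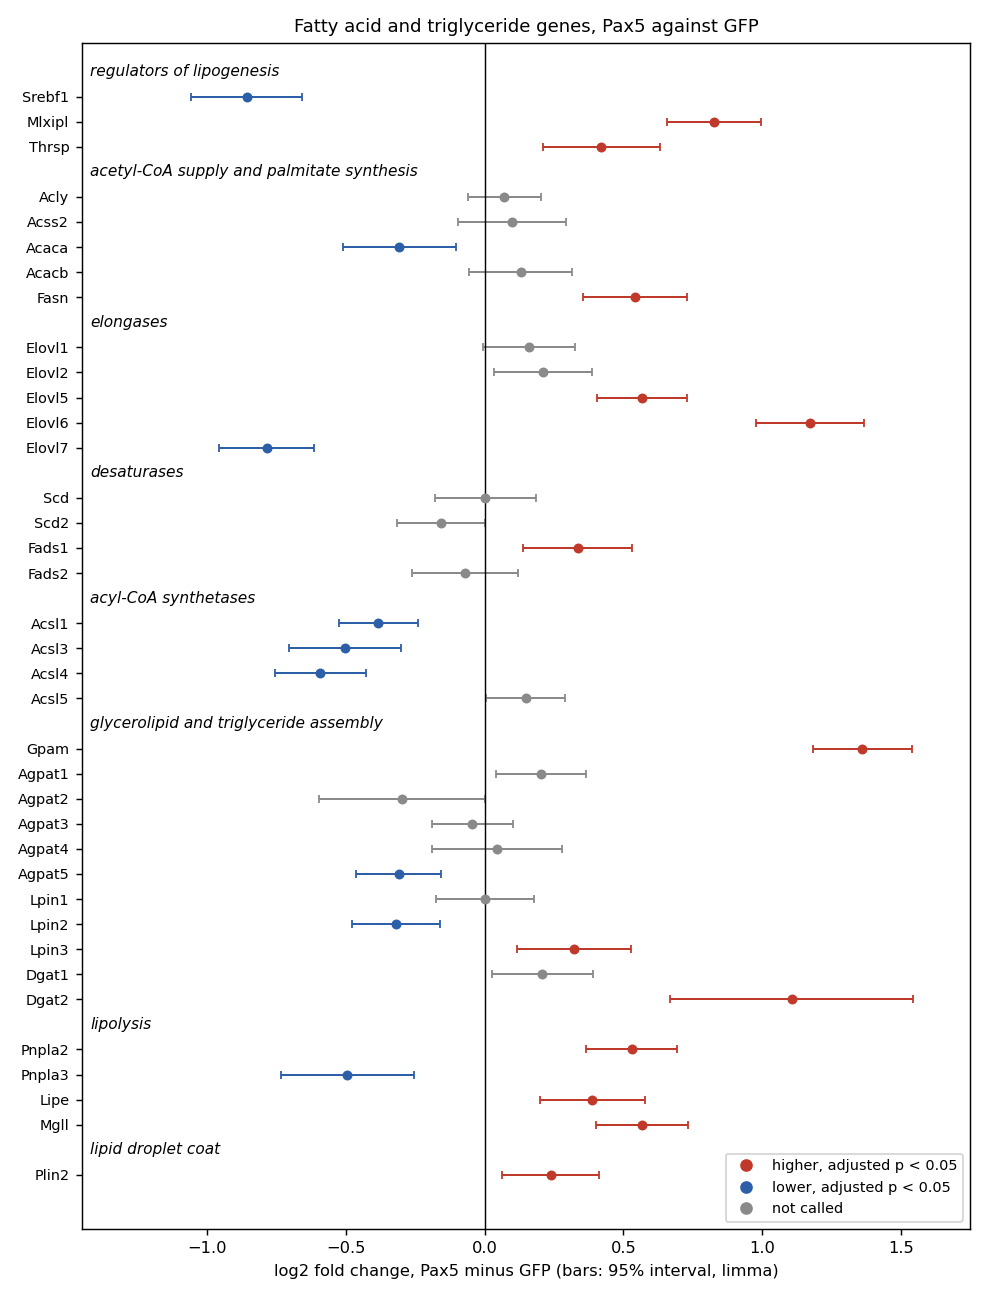
Log2 fold change (Pax5 minus GFP, x axis) of the 37 measured members, grouped by pathway step, with 95% intervals from limma over 8 experiments. Red points are the 13 members that were higher, blue points the 9 that were lower and grey points the 15 that were not called, and the acyl-CoA synthetases are the step with 3 lower members and none higher.

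The 3 regulators moved in different directions. Srebf1 encodes SREBP-1, the insulin-responsive activator of lipogenic genes. Its values lay between 9.82 and 10.57 (median 10.20) in GFP cells and between 9.18 and 9.51 (median 9.39) in Pax5 cells. The groups did not overlap, and the GFP array of experiment 2 was the lowest of its group. Srebf1 fell by 0.86 log2 units (limma, SE 0.0942, adjusted p = 4.24e-06), lower in 8 of 8 experiments, with differences from -1.33 in experiment 6 to -0.39 in experiment 2. Mlxipl, which encodes the glucose-responsive activator ChREBP, moved the other way. Its values ranged from 14.86 to 15.18 (median 15.04) with GFP and from 15.62 to 16.04 (median 15.86) with Pax5. Every Pax5 array was above every GFP array, and the rise was 0.83 (SE 0.0798, adjusted p = 1.08e-06). Thrsp, also called Spot 14, encodes a small protein that promotes lipogenesis and is itself a target of these factors in liver. Among GFP arrays Thrsp ran from 4.52 to 4.94 (median 4.74) and among Pax5 arrays from 4.88 to 5.52 (median 5.15). The groups overlapped, with the Pax5 array of experiment 7 below its GFP array. Its rise of 0.42 (SE 0.0994, adjusted p = 0.00414) was seen in 7 of 8 experiments, and its cluster is among the dimmest 30%.

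**Figure D2:**
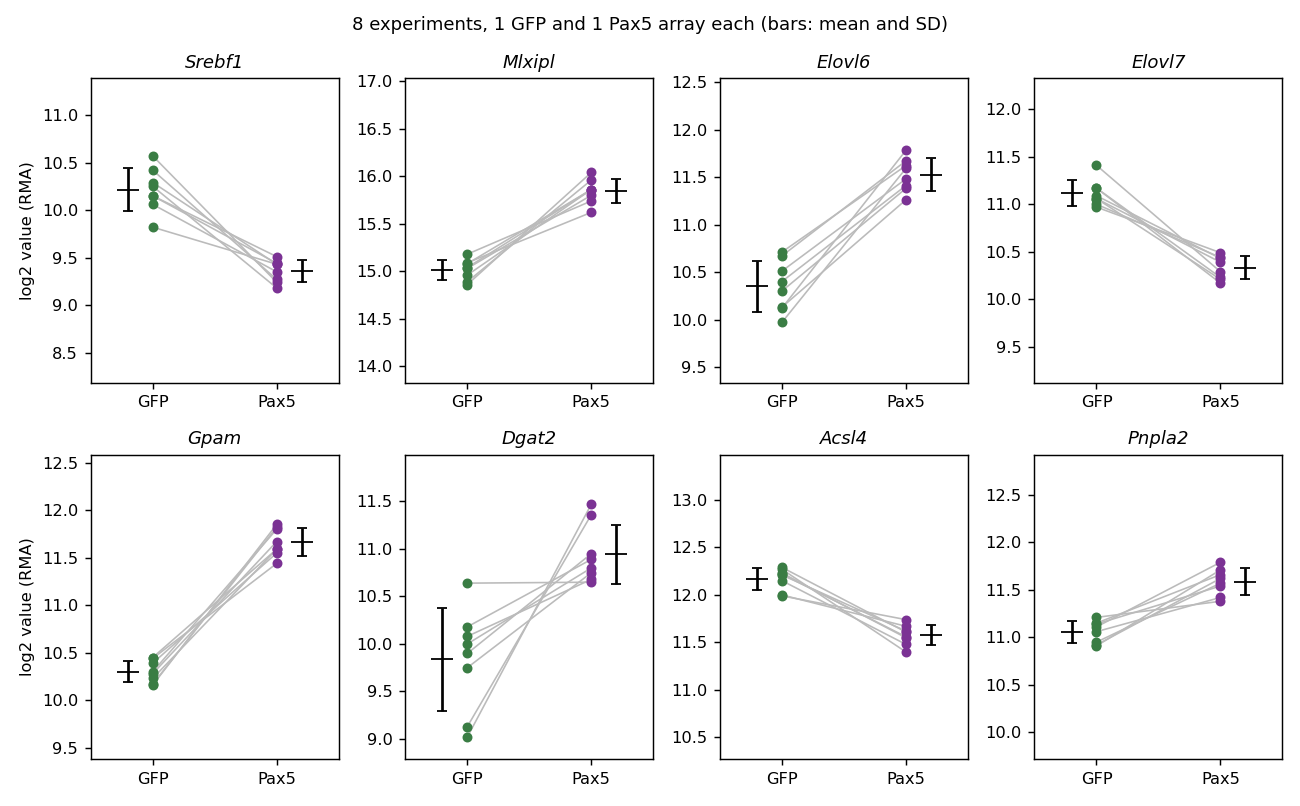
Log2 values (y axis) of 8 members on the GFP and the Pax5 array of each experiment, joined by a line, with the mean and SD of each group beside them (n = 8). All panels span the same number of log2 units, and no GFP point reaches the range of the Pax5 points in any of the 8 panels.

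Promoter windows of 250 bases before the annotated start (RefSeq, GRCr8) were matched by symbol for 31 of the 38 members, and Acaca, Fasn, Elovl6, Agpat5, Dgat1, Dgat2 and Lipe are named only. They were searched on both strands for the letters TCACNCCAC, a core of the sterol regulatory element that SREBP proteins bind, for GCGTGAC, a core of the PAX5 motif, and for CACGTG, the E-box whose variants ChREBP and SREBP-1 recognise. The search was widened after the values had been seen to CCAAT, the box of NF-Y, a frequent partner of SREBP proteins. None of these motifs shares its position with another in the windows below. The E-box stood in 3 of the 31 members (9.68%, against 6.18% of all 27457 genes of the table), namely Elovl5, Mgll and Plin2. All 3 were called higher, beside 35.1% of the measured members and 14.6% of all clusters. The cluster of Plin2 is among the dimmest 30%, and its call ends in several alternatives given below. A link between the E-box and these calls was not tested. A CCAAT box stood in 19 (61.3%, against 36.1% of all genes), of which 7 were called higher, 4 lower and 7 not called, Plin3 being unmeasured. The sterol element core was in 0 of 31 windows (1.09% of all genes) and the PAX5 core in 0 of 31 (1.95% of all genes). A match is only a match of letters, and its absence here says nothing of sites elsewhere. The windows of the 3 E-box genes are shown, with those of Gpam, which rose most, and of the regulators Mlxipl and Srebf1. Capitals mark CACGTG and CCAAT, the latter read as ATTGG where it lies on the other strand.
Elovl5, chr8:87670914-87671163 (plus strand): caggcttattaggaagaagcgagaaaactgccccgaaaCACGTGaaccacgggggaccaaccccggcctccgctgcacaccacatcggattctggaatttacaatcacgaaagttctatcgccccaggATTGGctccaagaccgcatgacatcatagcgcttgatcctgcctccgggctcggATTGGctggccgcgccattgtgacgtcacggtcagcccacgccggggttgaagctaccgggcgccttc
Mgll, chr4:122749186-122749435 (plus strand): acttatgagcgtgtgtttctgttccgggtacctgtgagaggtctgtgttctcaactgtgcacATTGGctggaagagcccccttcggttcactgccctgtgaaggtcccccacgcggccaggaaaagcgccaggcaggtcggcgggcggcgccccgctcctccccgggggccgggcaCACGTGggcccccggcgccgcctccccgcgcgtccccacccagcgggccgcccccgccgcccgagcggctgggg
Plin2, chr5:106229019-106229268 (minus strand): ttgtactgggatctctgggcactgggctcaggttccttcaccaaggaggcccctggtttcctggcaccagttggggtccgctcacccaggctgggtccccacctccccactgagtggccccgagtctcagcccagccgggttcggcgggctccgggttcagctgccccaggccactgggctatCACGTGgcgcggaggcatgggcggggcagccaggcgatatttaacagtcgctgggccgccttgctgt
Gpam, chr1:264175912-264176161 (minus strand): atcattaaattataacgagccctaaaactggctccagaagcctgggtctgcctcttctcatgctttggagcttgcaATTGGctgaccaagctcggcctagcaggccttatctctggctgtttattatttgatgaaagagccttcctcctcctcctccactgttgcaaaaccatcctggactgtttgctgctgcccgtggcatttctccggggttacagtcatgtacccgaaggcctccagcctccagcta
Mlxipl, chr12:27213661-27213910 (minus strand): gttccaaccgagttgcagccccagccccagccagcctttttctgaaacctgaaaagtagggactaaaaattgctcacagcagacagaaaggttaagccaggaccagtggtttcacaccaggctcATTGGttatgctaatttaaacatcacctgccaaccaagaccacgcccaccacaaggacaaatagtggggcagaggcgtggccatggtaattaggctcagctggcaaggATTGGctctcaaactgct
Srebf1, upstream start, chr10:45529165-45529414 (minus strand): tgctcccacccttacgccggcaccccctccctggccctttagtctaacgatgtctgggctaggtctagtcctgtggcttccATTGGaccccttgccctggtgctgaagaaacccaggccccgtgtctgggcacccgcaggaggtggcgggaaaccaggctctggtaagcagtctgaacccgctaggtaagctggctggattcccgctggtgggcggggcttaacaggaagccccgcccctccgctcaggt
Srebf1, downstream start, chr10:45519011-45519260 (minus strand): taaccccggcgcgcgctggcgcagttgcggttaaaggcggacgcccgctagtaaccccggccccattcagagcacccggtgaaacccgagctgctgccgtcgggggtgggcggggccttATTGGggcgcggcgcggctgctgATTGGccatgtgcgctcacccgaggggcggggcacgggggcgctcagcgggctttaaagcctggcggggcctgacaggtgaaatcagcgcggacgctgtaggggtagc
The E-box of Elovl5 began 212 bases before the start, that of Mgll 74 and that of Plin2 67. Srebf1 has 2 annotated starts, with 1 CCAAT box before the upstream one and 2 before the downstream one, while the array gives a single value for the gene. Mlxipl and Plin2 also have a further annotated start, whose windows are not printed. The unprinted window of Plin2 holds 0 E-boxes and 0 CCAAT boxes, and that of Mlxipl 0 and 2.

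At the entry to the pathway, 3 of 5 members did not pass the test, Acaca fell, and fatty acid synthase, the last enzyme, rose. Acly, ATP citrate lyase, which releases acetyl-CoA from citrate, had values from 16.93 to 17.13 (median 17.04) in GFP and from 17.03 to 17.19 (median 17.12) in Pax5 cells. Its log2 fold change was 0.07 (95% interval -0.06 to 0.20, adjusted p = 0.429). Acss2, which makes acetyl-CoA from acetate, had 0.10 (95% interval -0.10 to 0.29), with 5 experiments higher and 3 lower. Of the acetyl-CoA carboxylases, Acaca, the cytosolic form that feeds synthesis, ran from 11.81 to 12.31 (median 12.07) with GFP and from 11.55 to 11.97 (median 11.68) with Pax5. Both groups overlapped, and Acaca was lower in 6 and higher in 2 experiments, numbers 1 and 2. Acaca fell by 0.31 (SE 0.0958, adjusted p = 0.0226). Leaving out experiment 3, 4, 6 or 8 ends that call (adjusted p = 0.0537, 0.0674, 0.0673 and 0.0525), as does the paired test of single clusters that the study names, called the methods' t-test below (adjusted p = 0.0877). Acacb, the form at the mitochondrial surface, had a log2 fold change of 0.13 (95% interval -0.06 to 0.32). Fasn, fatty acid synthase, lay between 9.94 and 10.46 (median 10.29) in GFP and between 10.56 and 10.92 (median 10.84) in Pax5 cells. No value was shared between the groups, and the rise of 0.54 (SE 0.0887, adjusted p = 0.000212) ranged from 0.25 in experiment 1 to 0.98 in experiment 3. Acaca and Fasn, consecutive enzymes of palmitate synthesis, were thus called in opposite directions.

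The 5 elongases, which add carbon units to chains of different length and saturation, split into 2 that rose, 1 that fell and 2 that did not pass. Elovl6 acts on palmitate and palmitoleate and so extends the products of fatty acid synthase. Its GFP values ran from 9.97 to 10.71 (median 10.35) and its Pax5 values from 11.26 to 11.78 (median 11.54). Experiments 3 and 4 had low GFP arrays and the largest differences (1.66 and 1.62), and the other 6 experiments differed by 0.91 to 1.13. The mean rise was 1.17, or 2.25-fold (SE 0.0921 on the log2 scale, adjusted p = 1.08e-07). Elovl5, an elongase of polyunsaturated chains, lay from 12.77 to 13.12 (median 12.97) with GFP and from 13.41 to 13.63 (median 13.54) with Pax5. It rose by 0.57 in 8 of 8 experiments (SE 0.0763, adjusted p = 3.34e-05), with groups that did not overlap. Elovl7, an elongase of long saturated chains, was the member with the second largest fall after Srebf1. Its values were 10.97 to 11.41 (median 11.08) in GFP and 10.17 to 10.49 (median 10.34) in Pax5 cells. Its fall of 0.79 (SE 0.0801, adjusted p = 1.93e-06) was seen in 8 of 8 experiments. Elovl1, of very long saturated chains, had a log2 fold change of 0.16 (95% interval 0.00 to 0.33, adjusted p = 0.135), and Elovl2, of very long polyunsaturated chains, 0.21 (95% interval 0.03 to 0.39, adjusted p = 0.0673).

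Among the desaturases, which place double bonds, only Fads1 passed the test. Scd, the stearoyl-CoA desaturase of liver and fat, lay between 7.07 and 7.51 (median 7.18) in GFP and between 7.06 and 7.36 (median 7.25) in Pax5 cells, a log2 fold change of 0.00 (95% interval -0.18 to 0.18). Scd2, its paralog, had values from 16.37 to 16.71 with GFP and from 16.18 to 16.49 with Pax5, a log2 fold change of -0.16 (95% interval -0.32 to 0.00, adjusted p = 0.128). Neither Δ9 desaturase passed, and the arrays of both groups overlapped for each. Fads1, the Δ5 desaturase of polyunsaturated synthesis, ran from 14.90 to 15.58 (median 15.30) with GFP and from 15.44 to 15.79 (median 15.60) with Pax5. It rose by 0.34 (SE 0.0925, adjusted p = 0.0114), higher in 7 of 8 experiments, with its largest differences in experiments 3 (0.68) and 4 (0.82). In the methods' t-test its adjusted p was 0.0566. Fads2, the Δ6 desaturase that acts before it, had a log2 fold change of -0.07 (95% interval -0.26 to 0.12), with 4 experiments higher and 4 lower. Its GFP array of experiment 4 was the lowest of its group (13.99), as was that of Fads1 (14.9) and that of Elovl6 (9.97).

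Of the 4 long-chain acyl-CoA synthetases, which activate free fatty acids for esterification or oxidation, 3 fell and none rose. Acsl4, which prefers arachidonate, lay between 11.99 and 12.29 (median 12.22) in GFP and between 11.40 and 11.74 (median 11.59) in Pax5 cells. Its fall was 0.59 (SE 0.0764, adjusted p = 2.24e-05), with differences from -0.87 in experiment 1 to -0.25 in experiment 7. Acsl3, a form found on the endoplasmic reticulum and on lipid droplets, ran from 10.05 to 10.60 (median 10.25) with GFP and from 9.57 to 10.00 (median 9.82) with Pax5. The groups were separated by a narrow gap, and in experiment 7 the difference was only -0.05. Acsl3 fell by 0.50 (SE 0.0948, adjusted p = 0.000713). Acsl1, the main form of fat and heart, had values of 11.92 to 12.18 (median 12.03) in GFP and 11.51 to 11.77 (median 11.66) in Pax5 cells. Its fall of 0.38 (SE 0.0671, adjusted p = 0.000384) was the most even of these, from -0.53 to -0.25. All 3 were lower in 8 of 8 experiments. Acsl5, by contrast, had a log2 fold change of 0.15 (95% interval 0.01 to 0.29, adjusted p = 0.11), with 7 of 8 experiments higher.

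Glycerolipid assembly showed its largest changes at its first and last steps. Gpam encodes the mitochondrial glycerol-3-phosphate acyltransferase, which commits acyl-CoA to glycerolipid. GFP values lay between 10.16 and 10.45 (median 10.29) and Pax5 values between 11.44 and 11.85 (median 11.63). The groups were about a full unit apart at their nearest points, and differences ranged from 1.00 in experiment 7 to 1.69 in experiment 3. With a rise of 1.36, or 2.57-fold (SE 0.0836, adjusted p = 7.55e-09), Gpam changed most of all members. Dgat2, one of a pair of unrelated enzymes that make triglyceride from diacylglycerol, had values from 9.02 to 10.64 (median 9.95) in GFP and from 10.65 to 11.47 (median 10.85) in Pax5 cells. The GFP arrays of experiments 1 and 2 were the lowest, and that of experiment 4 came within 0.01 of its Pax5 array. Dgat2 rose by 1.11, or 2.15-fold (SE 0.206, adjusted p = 0.000634), and its differences spread more than those of any other member, from 0.01 in experiment 4 to 2.45 in experiment 1. Its SD over GFP arrays, 0.538, was likewise the highest of the members. Leaving out 1 experiment at a time, its rise ranged from 0.91 to 1.26. The other enzyme, Dgat1, had a log2 fold change of 0.21 (95% interval 0.03 to 0.39, adjusted p = 0.0791), with 6 experiments higher and 2 lower.

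Between these ends, the log2 fold changes of the acyltransferases and phosphatases lay between -0.32 and 0.32. Of the 5 AGPAT genes, whose products add the second acyl chain to form phosphatidic acid, only Agpat5 passed. It fell by 0.31 (SE 0.0722, adjusted p = 0.00367) from 10.32 to 10.53 (median 10.40) in GFP to 9.91 to 10.27 (median 10.12) in Pax5 cells, without overlap. Agpat1 was higher in 8 of 8 experiments, but by 0.20 on average (95% interval 0.04 to 0.37, adjusted p = 0.0576), with differences from 0.03 to 0.54 and overlapping groups. Agpat2, the form lost in a human lipodystrophy, had a log2 fold change of -0.30 with a wide 95% interval (-0.60 to 0.00, adjusted p = 0.126). Its values ran from 10.01 to 10.77 in GFP and from 9.86 to 10.47 in Pax5 cells, and the sign differed between experiments. Agpat2 was higher by 0.46, 0.25 and 0.26 in experiments 1, 2 and 8, and lower by 0.48 to 0.88 in the other 5. Without experiment 1 it passed as lower (-0.41, adjusted p = 0.0279). Agpat4 was likewise higher in experiments 1 (0.73), 2 (0.23) and 8 (0.41), and had 0.09 in experiment 4 and values of -0.35 to -0.15 in the rest, which gave a log2 fold change of 0.05 (95% interval -0.19 to 0.28). Agpat3 had -0.04 (95% interval -0.19 to 0.10).

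The 3 lipins, phosphatidate phosphatases that yield diacylglycerol, each behaved differently. Lpin2, the form prominent in liver, ran from 8.29 to 8.70 (median 8.62) with GFP and from 8.10 to 8.41 (median 8.27) with Pax5. It fell by 0.32 (SE 0.0747, adjusted p = 0.00384) in 7 of 8 experiments, and the exception was experiment 4, whose GFP array was the lowest of its group. Lpin3 lay between 8.04 and 8.59 (median 8.42) in GFP and between 8.47 and 8.92 (median 8.70) in Pax5 cells. It rose by 0.32 (SE 0.097, adjusted p = 0.0186) in 7 of 8 experiments. Leaving out experiment 2 (adjusted p = 0.0545) or 3 (0.0582) ends the call, as does the methods' t-test (0.0808). Lpin1, the main lipin of fat and muscle and also a coregulator in the nucleus, had a log2 fold change of 0.00 (95% interval -0.18 to 0.18), which was the average of rises of 0.39 and 0.37 in experiments 3 and 4 and falls of up to 0.25 in the other 6.

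The enzymes that take triglyceride apart were mostly higher. Pnpla2 encodes adipose triglyceride lipase, which removes the first fatty acid. Its values were 10.91 to 11.21 (median 11.09) in GFP and 11.38 to 11.79 (median 11.60) in Pax5 cells, with no overlap. The rise of 0.53 (SE 0.0774, adjusted p = 7.34e-05) ranged from 0.17 in experiment 7 to 0.80 in experiment 3. Mgll, monoacylglycerol lipase, which removes the last one, lay between 5.57 and 5.87 (median 5.72) with GFP and between 6.16 and 6.55 (median 6.27) with Pax5. It rose by 0.57 in 8 of 8 experiments (SE 0.078, adjusted p = 4.02e-05). Lipe, hormone-sensitive lipase, which acts mainly on diacylglycerol, had values from 4.90 to 5.35 (median 5.01) and from 5.30 to 5.72 (median 5.46). Its rise of 0.39 (SE 0.0891, adjusted p = 0.00337) was seen in 7 experiments, experiment 5 being tied, and its cluster is among the dimmest 30%. Thus 3 of 4 lipolytic members rose, of which Mgll and Lipe had low values, below the array medians (6.98 to 7.01) in both groups. The exception, Pnpla3, a relative of Pnpla2 that is induced by SREBP-1 in liver and has a variant linked to human fatty liver, ran from 6.93 to 7.64 (median 7.29) in GFP and from 6.59 to 7.05 (median 6.75) in Pax5 cells. It fell by 0.49 (SE 0.113, adjusted p = 0.00314) in 7 of 8 experiments. Plin2, which encodes the main coat protein of lipid droplets outside fat cells, lay between 4.89 and 5.24 (median 5.03) and between 5.07 and 5.40 (median 5.31). Its rise was 0.24 (SE 0.0823, adjusted p = 0.0376), and its cluster is also among the dimmest 30%. The call ends when experiment 1, 2, 4, 5 or 8 is left out (adjusted p between 0.0594 and 0.103), in the methods' t-test (0.0821), after quantile normalization (0.0513) and with array weights (0.0521).

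**Figure D3:**
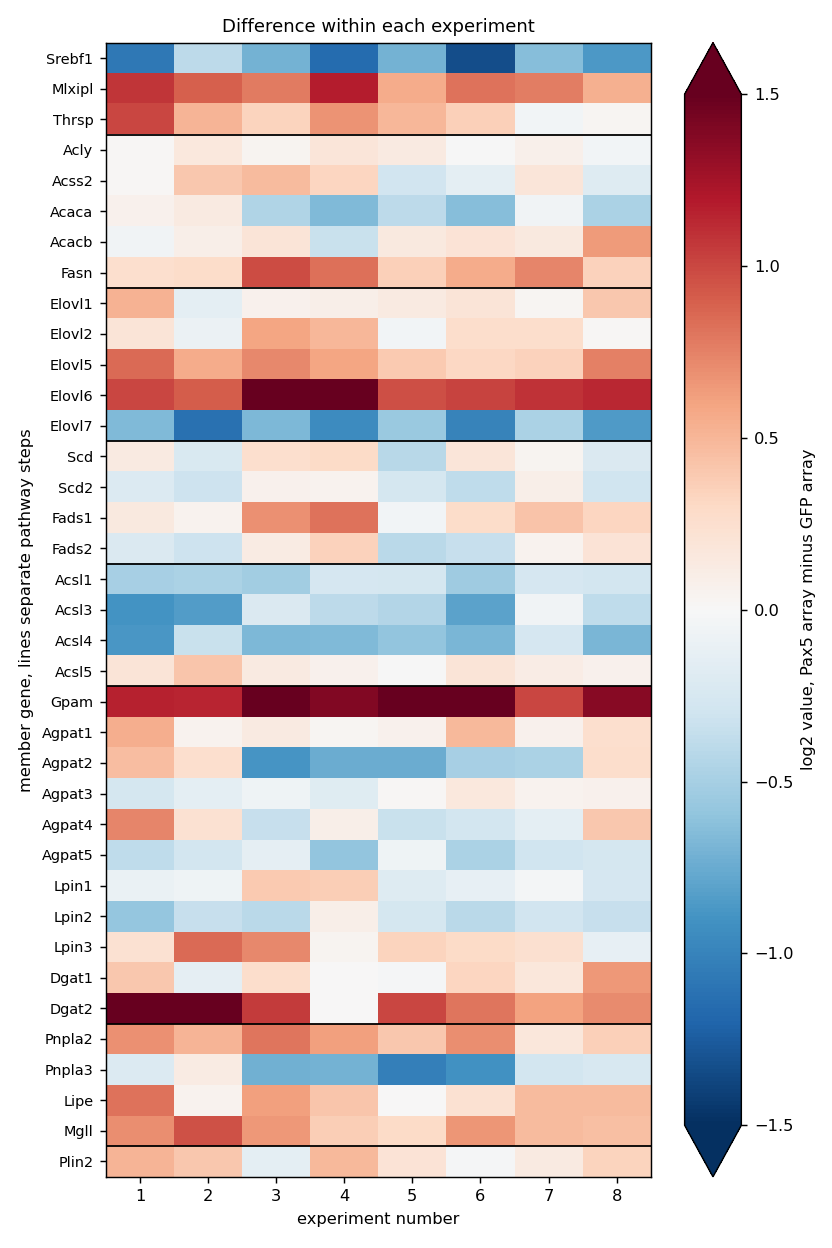
Log2 difference (Pax5 array minus GFP array, colour) of each measured member (rows, in pathway order) in each of the 8 experiments (columns), red where Pax5 was higher and blue where it was lower, with colours saturated past the ends of the scale. Gpam, Elovl6 and Mlxipl are red and Srebf1, Elovl7 and Acsl4 blue in every column, while Dgat2 fades to white in experiment 4 and Agpat2 changes colour between experiments.

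The experiments differed in how far the members moved. The median difference of the 37 members ranged from -0.02 in experiment 5 to 0.19 in experiment 1, where that of all clusters was 0.00 and -0.01. Between 16 (experiment 5) and 26 (experiment 4) of the members were higher with Pax5. Fasn (0.98 and 0.83), Elovl2, Elovl6, Fads1, Lpin1 and Scd had their 2 highest differences in experiments 3 and 4. Dgat2, Acaca, Mgll and Pnpla3 had theirs in experiments 1 and 2, and the lowest difference of Dgat2 was in experiment 4. GFP arrays of experiments 1 and 4 held the lowest value of their group for 8 and 9 of the 37 members, and that of experiment 5 the highest for 10. Over all clusters, deviations of the 2 arrays of an experiment from the means of their groups ran against each other (correlation -0.749 to -0.704), so a low GFP array tended to stand beside a high Pax5 array, as for Dgat2 in experiment 1. Whether effects of the experiments were removed from the values before deposit is not stated in the sources used here and was not tested, so group ranges, SDs and overlaps describe the values as deposited. The counts above are descriptions, and members measured on the same array are not independent.

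Of 69 partner genes of these steps, taken from 7 lists, 56 had a named cluster. Of these, 18 were higher and 11 lower, with a median log2 fold change of 0.05. The 51.8% called stood against 30.7% of all clusters, 32.4% of named genes and 41.3% of clusters without the dimmest 30%. Among genes that control the regulators, 2 of 10 rose and 2 fell (40.0% called, near the 41.3% of clusters without the dimmest 30%). Mlx, the partner with which ChREBP binds DNA, rose by 0.61 (SE 0.0779, adjusted p = 1.92e-05), from 13.20 to 13.59 (median 13.49) in GFP to 13.91 to 14.21 (median 14.08) in Pax5 cells. Srebf2, which encodes the SREBP of cholesterol synthesis, ran from 10.39 to 11.02 (median 10.64) with GFP and from 11.12 to 11.55 (median 11.32) with Pax5. It rose by 0.64 (SE 0.0969, adjusted p = 0.000112), so that the 2 SREBP genes were called in opposite directions. Insig2, which holds SREBPs in the endoplasmic reticulum, fell by 0.34 (adjusted p = 0.00186) and Mid1ip1, a paralog of Thrsp, by 0.26 (adjusted p = 0.0346). Insig1, a classical SREBP target, had 0.06 (95% interval -0.19 to 0.32). Scap, the SREBP escort, had 0.23 (adjusted p = 0.0513).

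Partners of single steps also differed from each other. In citrate export and NADPH supply, 1 of 3 measured genes passed (33.3%, against 41.3% of clusters without the dimmest 30%). This was Idh1, the cytosolic isocitrate dehydrogenase, with a rise of 0.77 (SE 0.122, adjusted p = 0.000152). Slc25a1, the citrate carrier, and Me1, malic enzyme, had 0.02 and -0.10. In the elongation cycle, 1 of 6 measured genes rose and 3 fell (66.7% called, against the same 41.3%). Hacd3, a dehydratase of the cycle, rose by 0.65, while its relative Hacd1 fell by 0.44, Elovl4 by 0.37 and the reductase gene Hsd17b12 by 0.29 (adjusted p between 0.000149 and 0.00672). The electron donors of the desaturases, cytochrome b5 (Cyb5a, 0.56) and its reductase (Cyb5r3, 0.51), rose, and Cyb5b had 0.05. The GFP array of experiment 1 was far below the rest for Hacd3 (13.50, the nearest being 13.99).

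Further glycerolipid enzymes gave 6 rises and no fall among 13 measured (46.2% called, near the 41.3% of clusters without the dimmest 30%). By direction, 46.2% were higher and 0.0% lower, against 15.7% and 16.7% of named genes, dim ones included. Lpgat1, a lysophosphatidylglycerol acyltransferase, changed most, by 1.39 or 2.61-fold (SE 0.0936, adjusted p = 2.17e-08), from 11.32 to 11.81 (median 11.52) in GFP to 12.62 to 13.16 (median 12.98) in Pax5 cells. Lpcat1, a lysophosphatidylcholine acyltransferase, rose by 0.98 (SE 0.0804, adjusted p = 1.85e-07), Gpat3, an isoform of the first step in the endoplasmic reticulum, by 0.67 (SE 0.0782, adjusted p = 7.79e-06) and Cds2, a CDP-diacylglycerol synthase, by 0.37 (adjusted p = 0.00075). Gpat4, the other isoform there, had 0.02 (95% interval -0.15 to 0.19). Of 8 measured lipid droplet and lipolysis partners, 2 rose and 2 fell (50.0% called, against 41.3% of clusters without the dimmest 30%). Bscl2, which encodes seipin of droplet formation, rose by 0.67 and Fitm2, also of droplet formation, by 0.42. Cidec, which fuses droplets in fat cells, fell by 0.66, and G0s2, an inhibitor of adipose triglyceride lipase, by 0.56 (adjusted p of these 4 between 3.7e-05 and 0.00141).

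In fatty acid and acyl-CoA handling, 4 of 13 measured genes rose and 4 fell (61.5% called, against 41.3% of clusters without the dimmest 30%). The fatty acid binding protein genes Fabp5 and Fabp3 rose by 1.35 (2.54-fold, SE 0.0746, adjusted p = 2.56e-09) and 1.15 (2.21-fold, SE 0.122, adjusted p = 2.95e-06). Fabp5 values lay between 14.24 and 14.79 in GFP and between 15.67 and 16.02 in Pax5 cells. Slc27a1, a fatty acid transport protein with acyl-CoA synthetase activity, rose by 0.84 (SE 0.0786, adjusted p = 8.22e-07), opposite to Acsl1, Acsl3 and Acsl4. Acot1, an acyl-CoA thioesterase, fell by 0.70 (SE 0.101, adjusted p = 6.7e-05). Its close paralog Acot2 was also called lower (log2 fold change -0.67, adjusted p = 0.00322). Whether the probes separate these genes was not examined. The other calls of this list were Dbi, higher (0.53), and Acot13 (-0.385) and Acbd3 (-0.28), both lower.

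**Figure D4:**
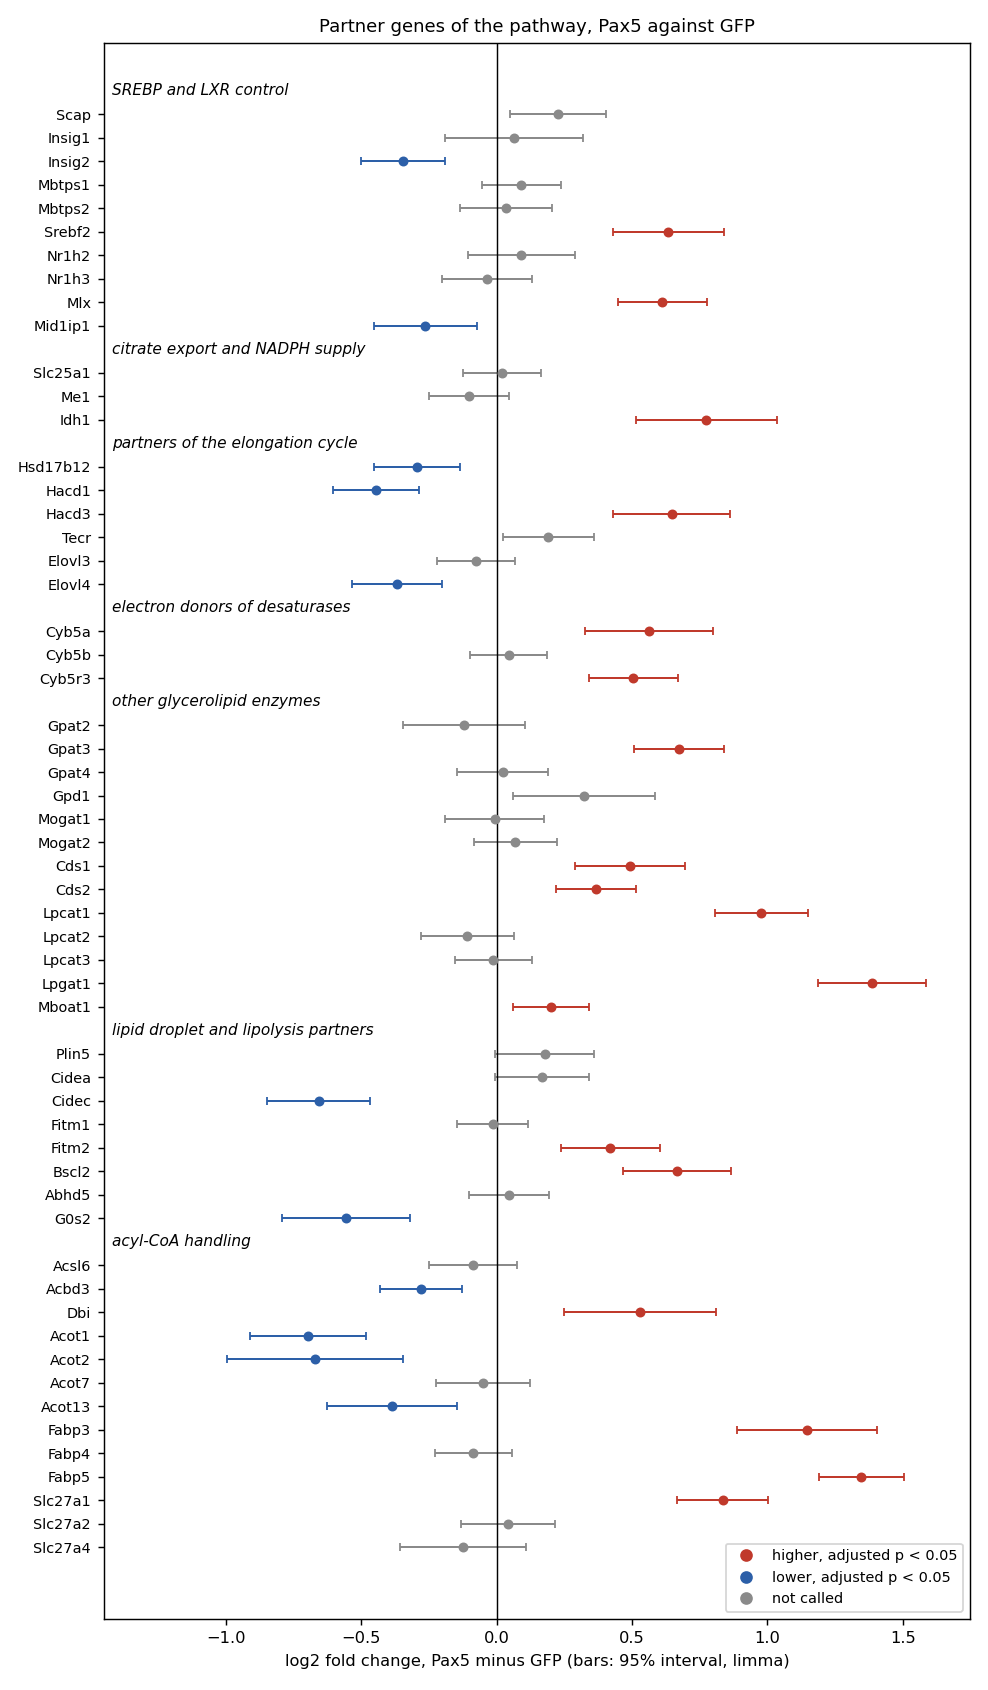
Log2 fold change (Pax5 minus GFP, x axis) of the 56 measured partner genes, grouped by list, with 95% intervals from limma over 8 experiments (red higher, blue lower, grey not called). Lpgat1, Fabp5 and Fabp3 lie beyond 1, and no gene among the further glycerolipid enzymes is blue.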

How the data were processed

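Total RNA of GFP and Pax5 cells (8 arrays each) was labelled with biotin and hybridized to 1-colour Affymetrix arrays. The authors deposited log2 values of 23188 transcript clusters, which per the labels were made with Transcriptome Analysis Console and RMA (versions and settings not given in the sources used here). Since RMA brings the probe values of the arrays to 1 common distribution, a shift shared by all genes is largely removed. The deposited cluster values do not share 1 distribution exactly. Quantile normalization of them moved the log2 fold change of Acsl5 from 0.15 to 0.22 and that of Plin2 from 0.24 to 0.22. Neither background nor saturation of spots was examined, and precision is limited by how many arrays there are.

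The platform annotation names 15049 clusters with 1 gene symbol and leaves 8139 unnamed. The groups were compared over all clusters by lmFit and eBayes (limma 3.58.1, R 4.3.3), 2-sided, with the labels' experiment number as a fixed block, and p was adjusted by Benjamini-Hochberg. A call is an adjusted p under 0.05. The study's legend for its expression panel names a paired test, which is called the methods' t-test here. As a check of the pairing, deviations from the group means correlated at -0.749 to -0.704 between arrays of 1 number and at -0.0893 to 0.259 between numbers, that is, in opposite directions within a pair. The block rests on the labels' numbers and the study's paired test. Whether the experiments were separate passages is not stated, so p-values cover only how far these experiments spread, which may be technical. The fit was tested on simulated data.

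The members and lists were chosen with earlier results of these data known. All 38 members are named, with up to 4 called genes of the lowest p in each partner list. Values given for uncalled partners, and for Acot2, Acot13, Acbd3 and Dbi, are outside this rule and were chosen after they were seen. Alternatives were a fit without the block, trended and robust eBayes, array weights, the methods' t-test, an adjusted p under 0.01, median centring or quantile normalization of the arrays, another cluster per symbol, a filter on the dimmest 30% of clusters, and each experiment left out. Promoter sequences are from RefSeq (GRCr8), and the CCAAT search was added after values were seen.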

Additional observations from a re-analysis of the deposited data

Results flagged for a closer look

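An array far from the others of its group was sought for each member and each called partner gene named by the rule (120 groups of 8 arrays), by setting the gap to the nearest array against the range of the group. If the groups were independent, chance would give about 6. They are not, since the 2 arrays of an experiment deviate in opposite directions, so that number is only a rough guide. The search marked 7 groups. Among GFP arrays these were Elovl7, highest in experiment 2 (11.41, nearest 11.17), Acsl1, highest in experiment 6 (12.18, nearest 12.04), and Lpin2, lowest in experiment 4 (8.29, nearest 8.51). Experiment 1 held the lowest GFP value of Mlx (13.2, nearest 13.42) and of Hacd3 (13.5, nearest 13.99). Among Pax5 arrays, experiment 1 was highest for Hacd3 (14.98, nearest 14.67) and for Cyb5r3 (15.33, nearest 15.15).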

How the results depend on the processing

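Across the 17 alternatives, the members called higher numbered 10 to 18 (13 as reported), those called lower 8 to 11 (9 as reported) and the partner genes called 25 to 34 (29 as reported). The median log2 fold change of the members stayed between 0.08 and 0.16. Without the block, 18 members were higher, 11 lower and 34 partners called. Elovl1, Elovl2, Acsl5, Agpat1 and Dgat1 were added as higher and Scd2 and Agpat2 as lower. That fit treats the 2 arrays of an experiment as independent, although their deviations correlated at -0.749 to -0.704, so its p-values may be too small. Shares of all clusters called in the alternatives are not given here, apart from 41.3% with the dimmest 30% left out. The methods' t-test called 10 and 8. Agpat1 passed in 5 settings that kept all experiments (adjusted p between 0.00673 and 0.0498), and Elovl1 (adjusted p = 0.0303) and Acsl5 (0.0201) after quantile normalization. Of the 22 called members, 18 kept their call and direction in every alternative in which they were measured. The exceptions were Acaca, Fads1, Lpin3 and Plin2. Taking another cluster per symbol could change little, as the 15049 named clusters carry 15037 symbols. With each experiment left out in turn, counts were 12 to 13 higher, 8 to 10 lower and 27 to 30 partners, and the values of 3 uncalled members lay on both sides of 0, Scd (-0.0386 to 0.0629), Agpat4 (-0.0529 to 0.101) and Lpin1 (-0.0557 to 0.0357). Elovl2 (adjusted p = 0.0376) and Dgat1 (0.0365) passed as higher without experiment 2. Thrsp, Lipe and Plin2 have no value with the dimmest 30% left out. The cause of these changes was not tested. Changes of the size seen in the 15 uncalled members may not be detectable at this number of arrays, so a missed threshold does not show that a gene did not differ.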
